A study of Mus musculus with 48 samples.

Results

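Genes that drive DNA replication and mitosis were followed in skin RNA of C3H/HeJ mice from a study that tried to prevent alopecia areata, an autoimmune loss of hair, with agents aimed at interleukin 15 (IL-15) and the kinases behind its receptor. The members were a hand-written list of 36 such genes, chosen with earlier results of these data known. The share of members called is therefore not independent of these data. Each member was represented by the probe set of highest mean signal among those annotated to that gene alone. Of the 36, 35 had a probe set of their own, out of 18194 genes with one. No probe set named Ccnb1 alone, and Tyms, the thymidylate synthase gene, lay near background with group means between 5.16 and 5.64 on the log2 scale. The other 34 passed the filter on low signal (above the table median of 6.70 in at least 3 arrays). They comprised 9 replication genes (Mcm2 to Mcm7, Pcna, Tk1 and Rrm2) and 25 genes of mitosis, described together below as mitosis genes.

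RNA was hybridised to 48 Affymetrix arrays, and 47 fell into 13 groups by treatment and title week. Week 5 held sham (n = 4), saline (PBS) by intraperitoneal injection (PBS ip, n = 4) and il15rb (n = 3; IL15 in the treatment label), known of the study as an antibody against the IL-15 receptor beta chain. Week 6 held jak3i (n = 5), known of the study as the Janus kinase (JAK) inhibitor tofacitinib, PBS pump (n = 3), jak12i (n = 5), ruxolitinib in the study, a drug against JAK1 and JAK2, and PBS gavage (n = 5). Week 13 had 3 arrays of each agent and 3 of each PBS route. All groups share the strain and the tissue. The labels state no genotype, age, sex, dose or graft, do not describe sham further, and give no route for the agents, so the pairing with a vehicle follows general knowledge of the study: il15rb was set against PBS ip, jak3i against PBS pump and jak12i against PBS gavage, each in its own week. One week 5 array whose title and treatment label conflict stayed out of every group.

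A dividing cell first loads the MCM helicase on its DNA and makes nucleotides for replication, then switches on cyclin B and Cdk1, builds a spindle and separates its chromosomes under the control of kinases such as Plk1 and Aurora. Transcripts of the replication genes typically peak before and during S phase, and those of the mitosis genes in G2 and M phase. In skin most division takes place in the hair matrix of growing follicles, in the basal epidermis and, where the immune system is active, in lymphocytes. Krt31, a keratin of the hair cortex, therefore serves as a sign of growing hair. In whole skin, fewer dividing cells and less RNA per dividing cell cannot be told apart.

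Replication and mitosis genes also differ in the letters of their promoters, which are given as background. Any link between these letters and the calls below was not tested. RefSeq promoters (GRCm38.p6, 250 bases before to 50 after the start) were at hand for 31 of the 36 members: 22 mitosis members, Ccnb1 among them, and 9 replication members, which here include Tyms and lack Mcm4. TTTGAA or TTTAAA on either strand, the core of the element called CHR, stood in 18 of 22 promoters of mitosis members, in 4 of 9 of replication members and in 27.82% of 27025 promoters of all genes. CCAAT on either strand stood in 19 of 22 and 7 of 9, against 37.92% of all promoters. An E2F motif (TTTCCCGC, TTTGGCGC, TTTCGCGC or TTTGCCGC, either strand, copies may overlap) stood in 1 of 22, that of Cdk1, and in 4 of 9, those of Mcm3, Mcm5, Mcm6 and Mcm7, against 2.32% of all. These are matches of letters and not measured binding sites. For members called lower in week 6 under jak12i before the Krt31 adjustment, CHR letters stood in 7 of 9 promoters at hand. The 120 bases before the start are printed below from 5′ to 3′ on the gene's strand for 4 mitosis genes and Mcm6. They were picked as examples and do not stand for their classes. Mcm6 had the most E2F matches of the replication members. Aspm, the strongest call of week 6, is not printed, and its CHR letters at -246, -136 and 7 lie outside such a stretch. Capitals mark the motifs.
Ccnb2: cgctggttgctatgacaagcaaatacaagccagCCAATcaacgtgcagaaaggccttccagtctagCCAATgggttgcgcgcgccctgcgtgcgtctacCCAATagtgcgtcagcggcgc
Cdc20: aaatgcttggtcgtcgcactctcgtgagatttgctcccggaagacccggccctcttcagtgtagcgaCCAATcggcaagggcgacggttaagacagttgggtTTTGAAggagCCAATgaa
Cdk1: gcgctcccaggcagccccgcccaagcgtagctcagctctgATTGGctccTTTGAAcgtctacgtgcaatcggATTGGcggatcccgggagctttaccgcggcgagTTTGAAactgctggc
Plk1: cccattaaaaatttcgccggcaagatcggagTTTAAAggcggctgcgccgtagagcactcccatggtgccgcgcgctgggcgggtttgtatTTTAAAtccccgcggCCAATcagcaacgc
Mcm6: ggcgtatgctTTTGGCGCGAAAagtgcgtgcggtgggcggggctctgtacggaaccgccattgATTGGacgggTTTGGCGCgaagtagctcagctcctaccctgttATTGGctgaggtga
They lie at chr9:70421555-70421674 (Ccnb2, minus strand), chr4:118437344-118437463 (Cdc20, minus), chr10:69352913-69353032 (Cdk1, minus), chr7:122159315-122159434 (Plk1, plus) and chr1:128359706-128359825 (Mcm6, minus). Ccnb2 shows CCAAT at -87, -54 and -21, at equal spacing. Its CHR letters, at -167 and at 5 past the start, lie outside the printed stretch. Cdc20 carries a CHR at -18 between CCAAT copies at -53 and -8, Cdk1 carries CHR letters at -71 and -15, and Plk1 at -89 and -29. The E2F letters of Cdk1, at -131, lie outside the printed stretch. Mcm6 holds E2F letters at -110, -106 and -47, the first pair overlapping, and no CHR in its 300 bases.

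Basal epidermis genes, which mark the labelled tissue, were high in every array, with a list mean between 11.70 and 12.43 over 7 genes. Arrays of a group correlated between 0.962 and 0.997, and no pair was identical. The mean of 7 skeletal muscle genes was 10.89 or more in 44 arrays and lay at 7.72 in week 13 PBS ip replicate 3, 7.99 in week 13 PBS pump replicate 2 and 8.15 in week 6 PBS gavage replicate 5. Counts for comparisons of an agent with PBS that rest on these arrays are also given without them. The slope on Krt31 and the difference between the jak12i and jak3i effects, both below, were not refitted without all 3. The fits recovered between 87.0% and 96.0% of simulated 2-fold changes at these group sizes without Krt31 in the model, and between 85.5% and 96.0% with it. False calls made up 2.54% to 8.65% of the calls without Krt31, most in week 13 jak12i, and 2.17% to 5.52% with it. The changed genes were drawn from all tested genes and given independent noise. These rates therefore do not describe the members, which varied together.

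The members' levels differed by week. The mean of the 34 genes lay between 7.82 and 8.81 in week 5, between 7.66 and 8.80 in week 6 and between 8.43 and 9.90 in week 13. The 75th percentile of the arrays also differed (8.47 to 8.68, 8.15 to 8.35 and 8.68 to 8.78), so levels were compared within a week only.

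**Figure D1:**
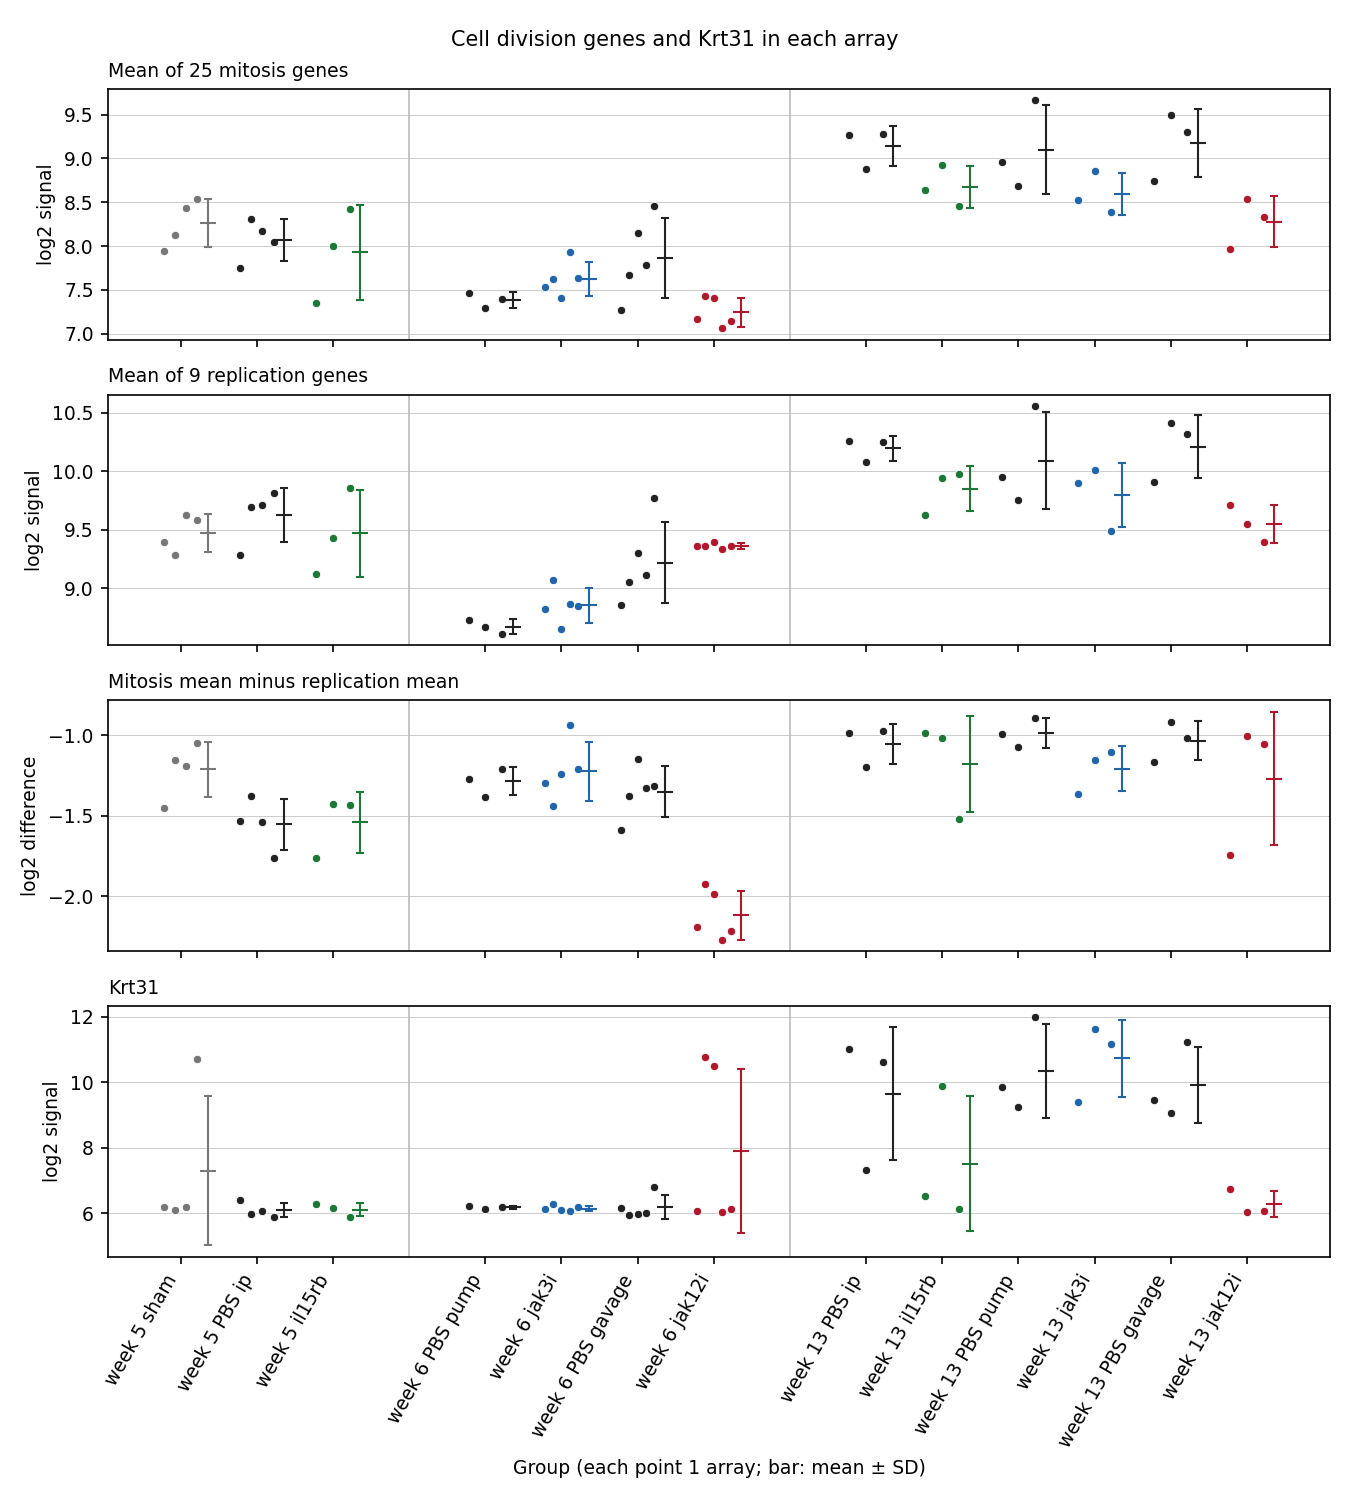
Each point is 1 array, and the bar beside each group is its mean ± SD; the vertical axes give log2 signal (top to bottom: mean of the 25 mitosis genes, mean of the 9 replication genes, their difference, Krt31) and the horizontal axis the 13 groups. The 5 week 6 jak12i arrays have differences of -2.27 to -1.93, below the arrays of every other group, while their replication means lie within 9.33 to 9.39.

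In week 6, 10 of the 25 mitosis genes and none of the 9 replication genes were called lower under jak12i than under PBS gavage; the contrast between the classes was not tested. Of the 34 members 10 fell, all of them mitosis genes, against 8.11% of all tested genes that fell (limma, adjusted p under 0.05 over 13646 genes). They were the cyclin genes Ccnb2 and Ccna2, the Cdk1 partner Cks2, the checkpoint kinase Ttk, the spindle and cytokinesis genes Aspm, Cenpf, Kif23 and Nusap1, the proliferation marker Mki67 and Cdc20, an activator of the anaphase-promoting complex. All 25 mitosis genes had a negative difference, with a median of -0.63. None of the 9 replication genes was called, 8 of them had a positive difference, and their median was 0.17. The median over all tested genes was -0.03.

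Aspm, which organises the spindle poles, measured 6.91, 7.59, 8.21, 7.68 and 8.28 in the 5 PBS gavage arrays and 6.32, 6.59, 6.56, 5.97 and 6.25 in the 5 jak12i arrays. The groups did not overlap, and all jak12i arrays lay below the table median of 6.70, where array signals are compressed. The difference was -1.40 ± 0.25 (SE), 2.64-fold lower, with an adjusted p of 0.00036. Ccnb2, a partner of Cdk1 in mitosis, measured 7.21, 7.87, 8.32, 8.01 and 8.70 under PBS gavage and 6.60, 7.02, 7.15, 6.37 and 6.81 under jak12i. Here too every treated array lay below every control array, with a difference of -1.23 ± 0.25 and an adjusted p of 0.00122. Cdc20 measured 8.34, 9.02, 9.50, 9.16 and 9.66 against 8.21, 8.43, 8.81, 8.24 and 8.05, so only PBS gavage replicate 1 reached into the treated range. Its difference was -0.79 ± 0.21 with an adjusted p of 0.0131.

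Mki67, found in all cycling cells, measured 8.73, 9.36, 10.14, 9.55 and 10.49 under PBS gavage and 8.68, 9.19, 9.06, 8.25 and 8.48 under jak12i. It fell by 0.92 ± 0.26 (adjusted p = 0.0181), with PBS gavage replicate 1 again inside the treated range. The remaining called members were Ttk (-0.71 ± 0.17, adjusted p = 0.00569), Cenpf (-1.05 ± 0.27, 0.00898), Cks2 (-0.85 ± 0.22, 0.00935), Kif23 (-0.60 ± 0.16, 0.015), Nusap1 (-0.92 ± 0.28, 0.0293) and Ccna2 (-0.76 ± 0.24, 0.0374). Of these, Kif23, a motor of cytokinesis, did not overlap between the groups. Top2a, which untangles DNA before chromosomes separate, missed the threshold (-0.82 ± 0.27, adjusted p = 0.0501), as did Cdk1 (-0.49 ± 0.23, 0.17), the kinase that starts mitosis, and the spindle kinase Aurka (-0.43 ± 0.17, 0.104).

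Among the replication genes, Mcm5, a subunit of the replicative helicase, measured 8.79, 9.04, 9.25, 9.07 and 10.03 under PBS gavage and 9.67, 9.60, 9.65, 9.54 and 9.69 under jak12i. All treated arrays lay above 4 of the 5 control arrays and below PBS gavage replicate 5, and the difference of 0.40 ± 0.21 was not called (adjusted p = 0.223). The sliding clamp gene Pcna differed by 0.02 ± 0.11 (adjusted p = 0.917, 95% interval -0.20 to 0.25), and Rrm2, a subunit of ribonucleotide reductase, by -0.21 ± 0.19 (adjusted p = 0.524).

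The mean of the 25 mitosis genes minus that of the 9 replication genes, whose absolute size has no meaning on arrays, was -1.59 to -1.15 in the PBS gavage arrays and -2.27 to -1.93 in the jak12i arrays. In jak3i and PBS pump of the same week it was -1.44 to -0.94 and -1.38 to -1.21. In this difference the jak12i arrays stood apart from the other 3 groups of week 6. The contrast was noticed in these data and is given without a test. The mitosis mean alone was 7.06 to 7.43 under jak12i, overlapping PBS pump (7.29 to 7.46) and jak3i (7.41 to 7.93). Against PBS pump the replication mean was the one that separated, at 9.33 to 9.39 under jak12i and 8.61 to 8.73 under PBS pump.

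Several measures moved with this comparison, and their part in it was not tested. PBS gavage replicate 5 had the low muscle signal and also the highest members' mean of its group (8.80). Without it 4 members were called before the Krt31 adjustment below and 7 after it. Aspm (-1.26, adjusted p = 0.00228), Ccnb2 (-1.06, 0.00785), Cenpf (-0.89, 0.0438) and Ttk (-0.61, 0.0282) kept their calls without it. Without PBS gavage replicate 3 the count was 5, and without replicate 1 it was 17. The T cell list (8 of 11 genes tested, 1 called lower) had a mean of 7.26 to 7.94 under PBS gavage and 7.19 to 7.28 under jak12i. The macrophage list (0 of 10 called) ranged from 9.61 to 10.52 and from 9.41 to 9.99, and the fibroblast list (0 of 6 called) from 12.52 to 12.92 and from 11.84 to 12.72. With PBS of all routes as the control, 7 members were called, 2 lower and 5 higher: Aspm and Ccnb2 stayed lower, and Mcm5 was higher by 0.64 (adjusted p = 0.0188). The replication mean was 8.61 to 8.73 in the PBS pump arrays, below that of PBS gavage (8.85 to 9.77).

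Hair growth differed among the treated arrays. Krt31 measured 10.76 and 10.50 in jak12i replicates 2 and 3, and 6.02 to 6.13 in the other jak12i arrays. The PBS gavage arrays lay between 5.93 and 6.81, and the difference of 1.72 ± 0.86 was not called (adjusted p = 0.203). With the Krt31 value of each array in the model, 19 members fell, all mitosis genes and including the 10 above, against 8.24% of all genes. The genes added were Aurka, Birc5, Bub1, Cdk1, Kif11, Prc1, Top2a, Tpx2 and Ube2c. Among these, Aurka measured 6.03 to 6.20, Bub1 5.00 to 5.51 and Tpx2 5.68 to 6.51 under jak12i. All of these values lay below the table median, where array signals are compressed. Under PBS gavage Aurka measured 6.25 to 6.77, Bub1 5.09 to 7.45 and Tpx2 6.54 to 7.09. For Aurka and Bub1 only PBS gavage replicate 5 lay above the table median, so both groups were near the low end. The mitosis median moved from -0.63 to -0.80. The replication median was 0.15 with none of the 9 called, and 5 of them were positive and 4 negative, where 8 were positive without Krt31. Cdk1 then differed by -0.70 ± 0.22 (adjusted p = 0.037), Top2a by -1.06 ± 0.26 (0.00896) and Aurka by -0.55 ± 0.17 (0.0293). When the arrays with high Krt31 were left out of weeks 5 and 6, 10 members were called without the Krt31 term and 11 with it.

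**Figure D2:**
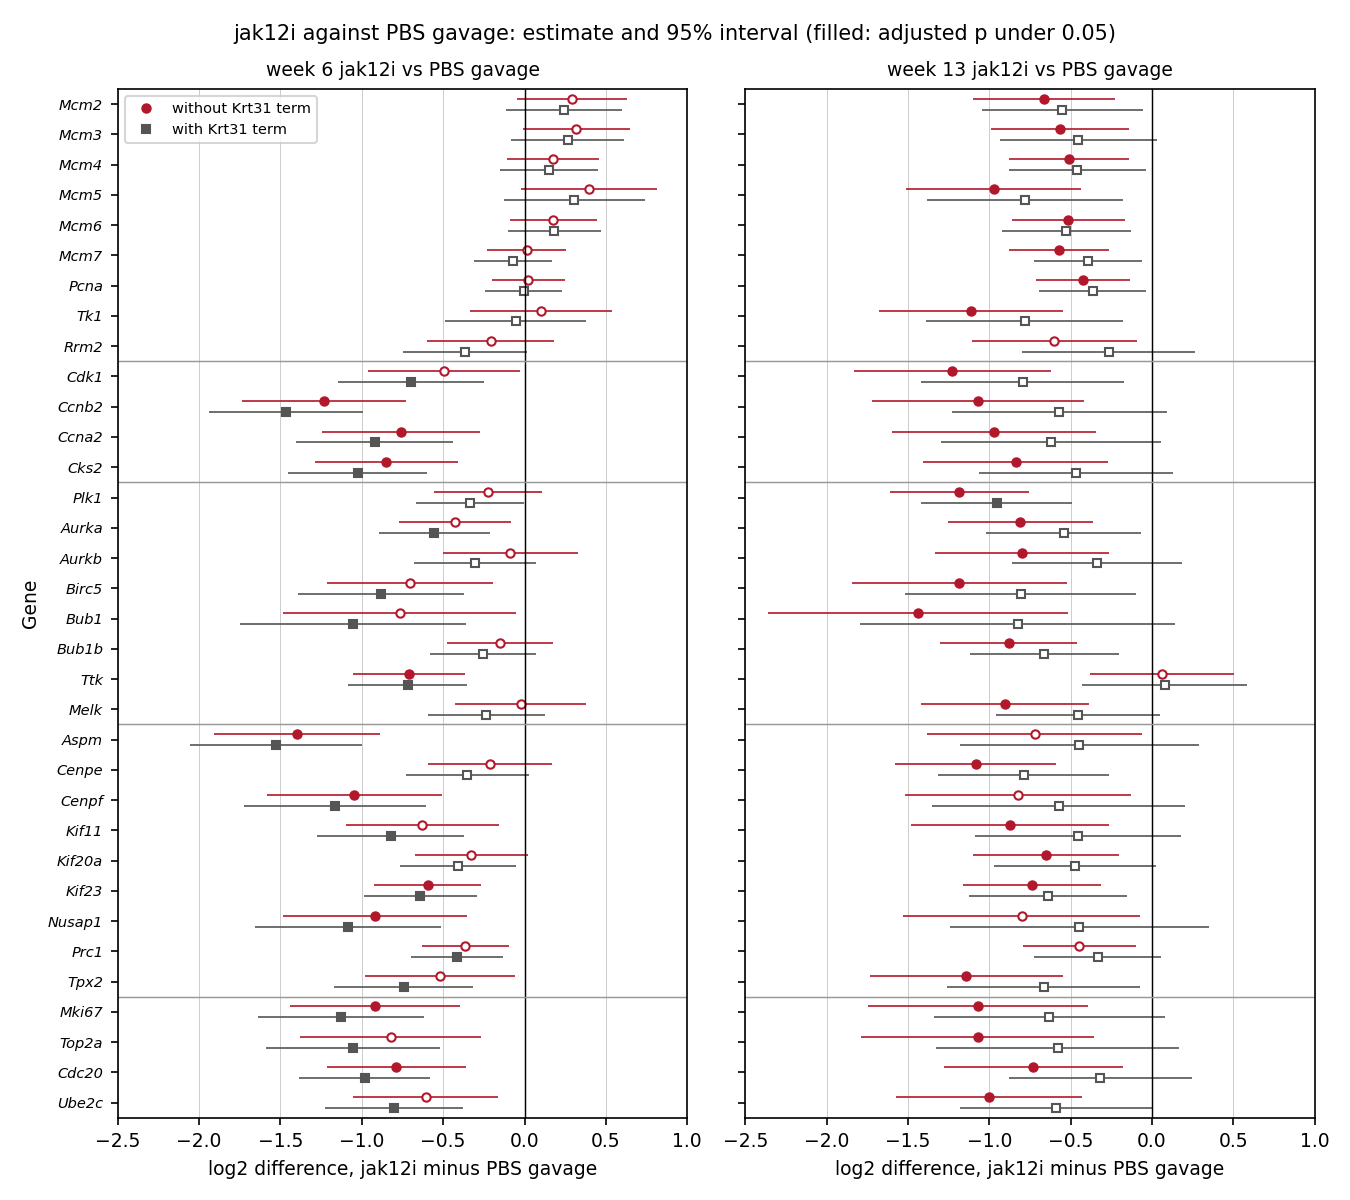
Log2 difference of each of the 34 genes between jak12i and PBS gavage (horizontal axis) in week 6 and week 13, with its 95% interval, without (circles) and with (squares) Krt31 in the model; filled symbols passed an adjusted p of 0.05. In week 6 the calls are all mitosis genes and number 10 and then 19, while in week 13 they span both classes and number 28 and then 1.

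In week 13 replication and mitosis genes fell together under jak12i. Of 34 members 28 fell, against 10.3% of all tested genes that fell: 8 of 9 replication genes and 20 of 25 mitosis genes. The median difference was -0.83 over the members, -0.57 over the replication genes and -0.88 over the mitosis genes, against 0.02 over all genes. The members not called were Rrm2, Prc1, Cenpf, Nusap1, Aspm and Ttk. Aspm, the strongest call of week 6, differed by -0.72 ± 0.33 here (adjusted p = 0.111), and Ttk by 0.06 ± 0.22 (0.88).

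Plk1, a kinase needed at several steps of mitosis, measured 8.47, 9.37 and 9.28 under PBS gavage and 7.54, 8.25 and 7.78 under jak12i. The groups did not overlap. The difference was -1.18 ± 0.21, 2.27-fold lower (adjusted p = 0.000103). Cdk1 measured 9.49, 10.25 and 10.07 against 8.35, 9.12 and 8.67, again without overlap, a difference of -1.23 ± 0.30 (adjusted p = 0.00302). The kinetochore motor Cenpe fell by 1.09 ± 0.24 (0.00139), the checkpoint kinase Bub1b by 0.88 ± 0.21 (0.00223), Tpx2, an activator of Aurka, by 1.14 ± 0.29 (0.00467) and Birc5, the survivin gene, by 1.18 ± 0.33 (0.00815).

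Among replication genes Mcm5 measured 9.88, 10.50 and 10.33 under PBS gavage and 9.57, 9.17 and 9.05 under jak12i, with no overlap. It fell by 0.97 ± 0.27 (adjusted p = 0.00765), where in week 6 its difference was positive. Tk1, which salvages thymidine, fell by 1.12 ± 0.28 (0.00372), Mcm7 by 0.57 ± 0.15 (0.0065) and Pcna by 0.42 ± 0.14 (0.0279). Mki67 fell by 1.07 ± 0.33 (0.0185), Top2a by 1.07 ± 0.35 (0.0262) and Aurka by 0.81 ± 0.22 (0.0072), while Rrm2 differed by -0.60 ± 0.25 (0.0803).

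Krt31 separated the same groups. It measured 9.45, 9.06 and 11.23 under PBS gavage and 6.74, 6.02 and 6.06 under jak12i, without overlap, a fall of 3.64 ± 1.11 (adjusted p = 0.0162). With Krt31 in the model 1 member, Plk1, remained called (-0.96 ± 0.23, adjusted p = 0.00678), against 3.07% of all genes called lower. Cenpe (-0.79 ± 0.26, 0.0572) and Bub1b (-0.66 ± 0.23, 0.0686) came next. All members but Ttk kept a negative difference, with a median of -0.55, where it was -0.83 without Krt31. Called genes over all tested genes went from 2985 to 967. Why members lost their calls was not tested. Because Krt31 did not overlap between the groups, treatment and hair growth cannot be told apart here, and the adjusted values rest on a slope estimated within groups.

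Other markers moved too, and their part in the result was not tested. The mean T cell signal was 7.95 to 8.60 in the 9 PBS arrays of week 13 and 6.71 to 7.38 in the 9 treated arrays. In the jak12i comparison 5 of its 8 tested genes fell. The adipocyte list, with all 4 tested genes called higher, lay at 8.93 to 9.84 under PBS gavage and at 10.77 to 11.38 under jak12i. Leaving out PBS gavage replicate 2 or 3 left 10 members called, leaving out jak12i replicate 1 left 14 and replicate 3 left 17. Without PBS gavage replicate 2 Plk1 still fell (-1.02, adjusted p = 0.00201), and Mki67 differed by -0.88 (0.0929). With Krt31 in the model Plk1 lost its call without that array (-0.73, 0.0769) and without jak12i replicate 1 (no member called).

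**Figure D3:**
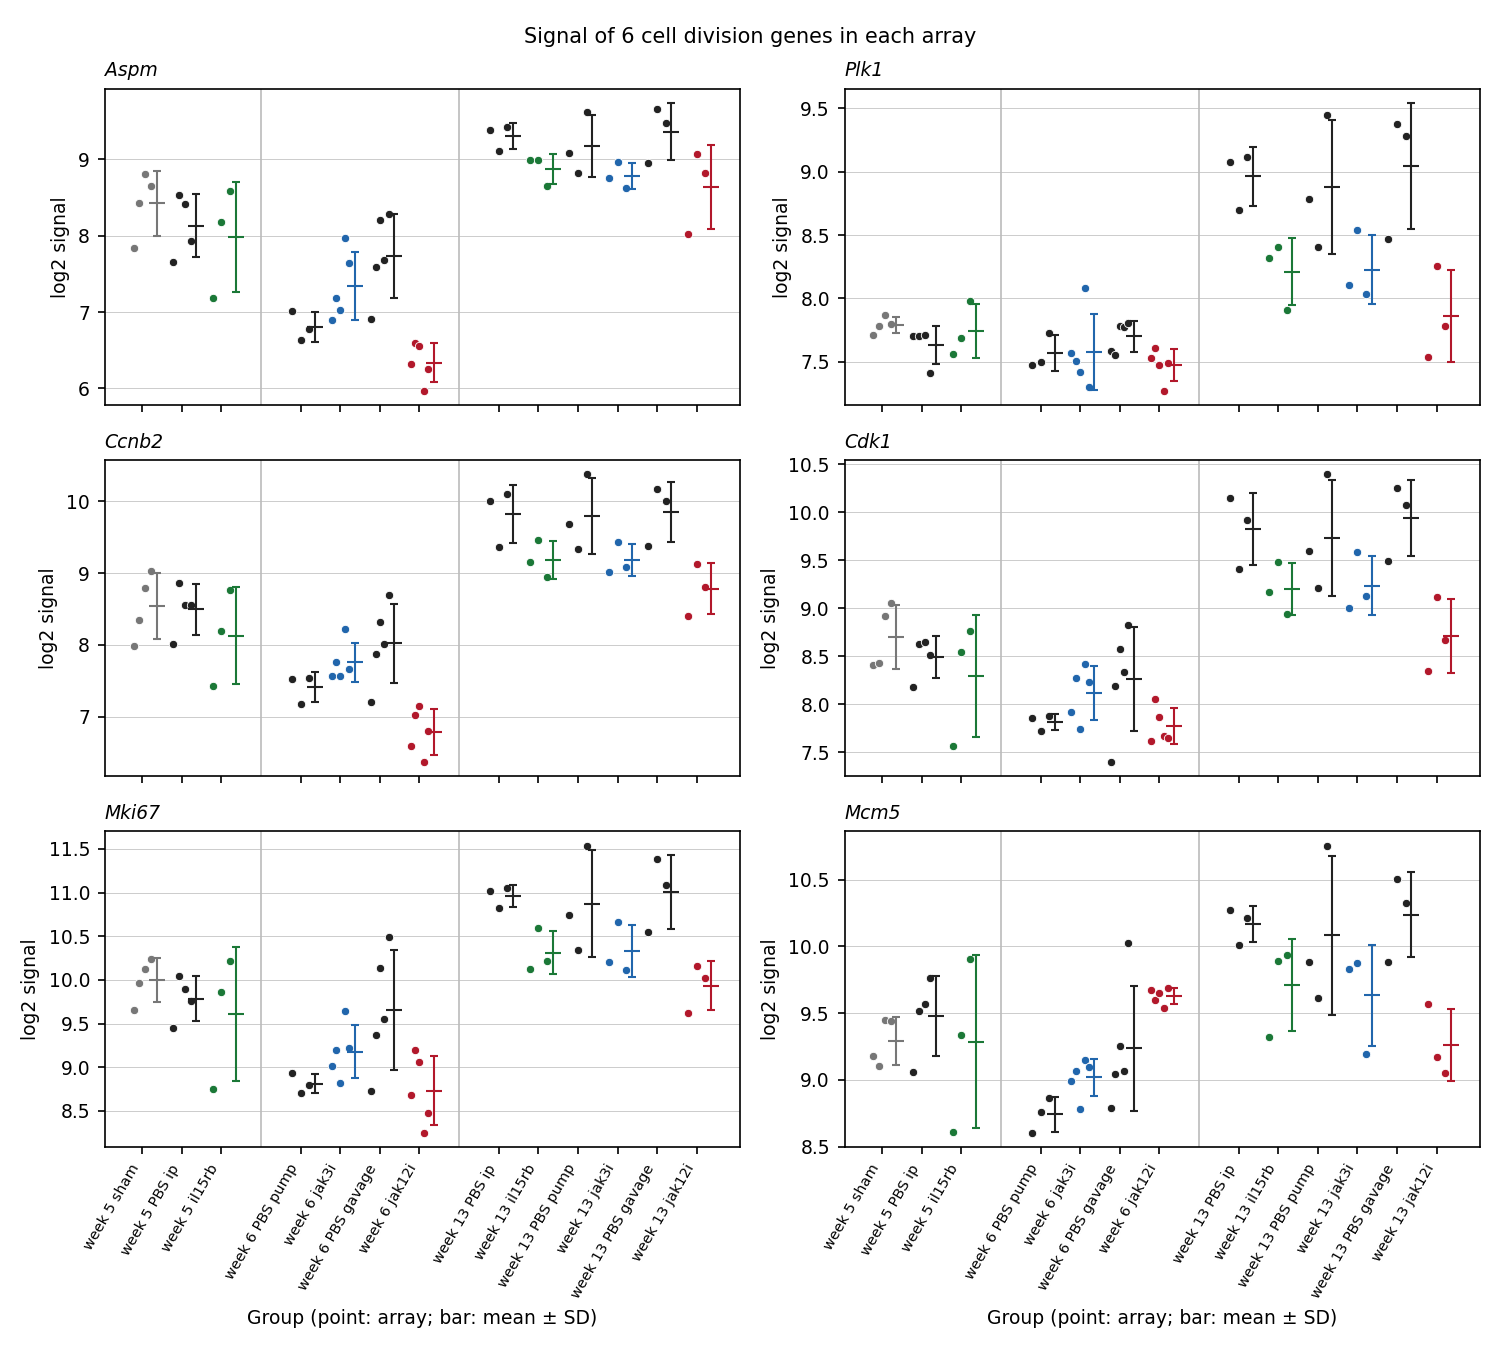
Log2 signal (vertical axes) of Aspm, Ccnb2, Mki67, Plk1, Cdk1 and Mcm5 in each array by group (horizontal axis); points are arrays and bars mean ± SD. Aspm and Ccnb2 separate the week 6 jak12i arrays from PBS gavage, and Plk1 and Mcm5 separate the week 13 jak12i arrays from PBS gavage.

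Under il15rb and jak3i few members were called in week 13. Against PBS ip, il15rb lowered 3 members (Plk1, Bub1b and Cenpe), against 10.6% of all genes, and all 34 had a negative difference (median -0.46, against 0.01 over all genes). Against PBS pump, jak3i lowered 2 (Bub1b and Plk1), against 6.32% of all genes, and again all 34 differences were negative (median -0.46, against 0.03). The share of members called was not above that background in either comparison. Mki67 differed by -0.65 ± 0.33 (adjusted p = 0.148) under il15rb and by -0.55 ± 0.33 (0.279) under jak3i, Cdk1 by -0.63 ± 0.30 (0.121) and -0.50 ± 0.30 (0.27), and Mcm5 by -0.45 ± 0.27 (0.218) and -0.45 ± 0.27 (0.259).

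Plk1 measured 9.08, 8.69 and 9.12 under PBS ip and 8.32, 8.41 and 7.91 under il15rb, a difference of -0.75 ± 0.21 (adjusted p = 0.00804) without overlap. Under PBS pump it measured 8.78, 8.40 and 9.45 and under jak3i 8.11, 8.54 and 8.03, where jak3i replicate 2 overlapped the controls (-0.65 ± 0.21, 0.0305). Bub1b fell by 0.64 ± 0.21 (0.0206) and by 0.70 ± 0.21 (0.0174), and Cenpe by 0.72 ± 0.24 (0.0255) under il15rb, with -0.61 ± 0.24 (0.0832) under jak3i. Plk1 and Bub1b were thus called lower in all 3 treatments of week 13, each against its own controls. How many of all tested genes were called lower in all 3 was not counted, so this recurrence has no background share beside it. The calls of Plk1 held in 15 of 15 fits tried for jak12i, 13 of 16 for il15rb and 11 of 16 for jak3i before the Krt31 term. With that term they held in 13 of 17 fits for jak12i (adjusted p up to 0.38), 10 of 18 for il15rb (up to 0.323) and 15 of 18 for jak3i (up to 0.175).

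Krt31 differed between the 2 comparisons. Under jak3i it measured 9.40, 11.62 and 11.17, and under PBS pump 9.85, 9.23 and 11.97 (difference 0.38 ± 1.11, adjusted p = 0.865). Under il15rb it measured 6.52, 9.87 and 6.11, and under PBS ip 11.01, 7.33 and 10.61 (-2.15 ± 1.11, 0.154). With Krt31 in the model, il15rb kept 1 call, Plk1 (-0.62 ± 0.21, 0.0388), against 7.38% of all genes, and the members' median moved to -0.27. Under jak3i there were then 4 calls, Bub1b (-0.73 ± 0.20, 0.00857), Plk1 (-0.67 ± 0.20, 0.0162), Tpx2 (-0.78 ± 0.26, 0.0311) and Cenpe (-0.64 ± 0.23, 0.0454), against 7.50%, and the median was -0.49. All 34 differences under jak3i were still negative, with Krt31 in overlapping ranges in both groups. T cell genes were called lower for 8 of 8 tested genes under il15rb and 7 of 8 under jak3i, and skeletal muscle genes higher for 6 of 7 and 1 of 7, where 1 array of each control group had the low muscle signal. Without those arrays 1 member was called under il15rb and 7 under jak3i. Leaving out single arrays moved the counts between 0 and 9 for il15rb and between 0 and 6 for jak3i. The lowest counts came without il15rb replicate 3 and without jak3i replicate 1, and for jak3i with Krt31 in the model, without PBS pump replicate 3.

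**Figure D4:**
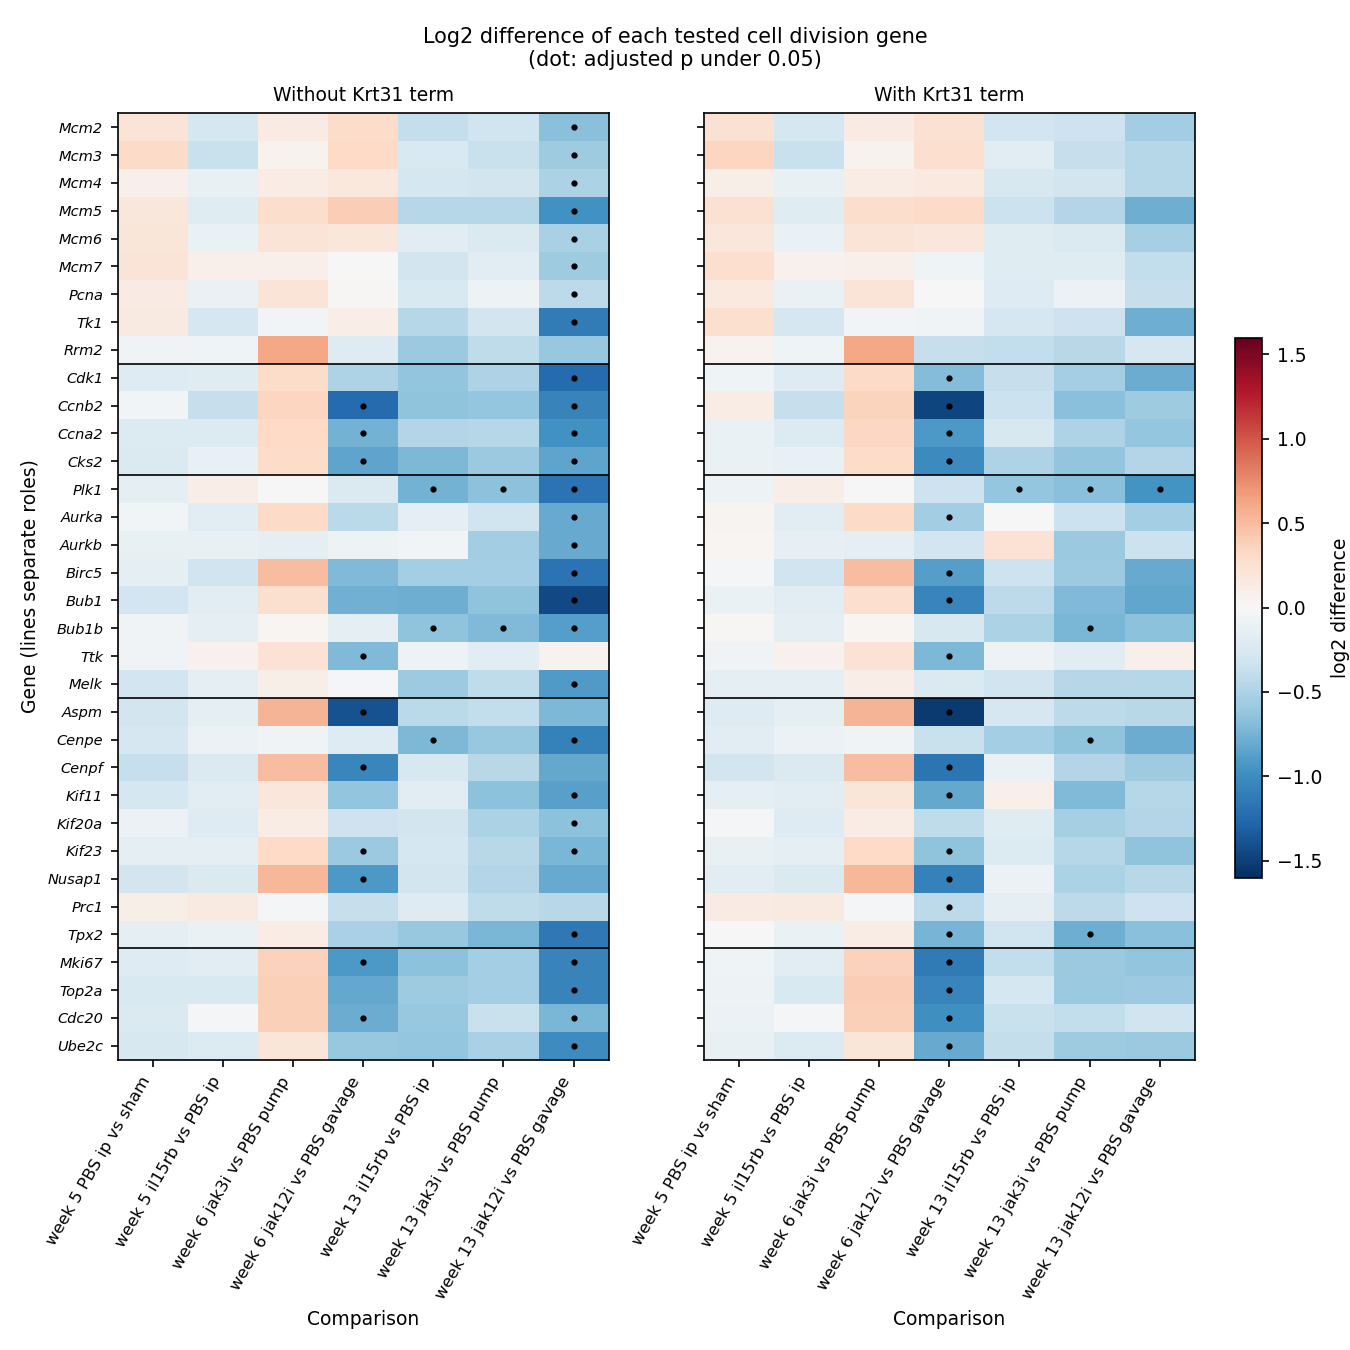
Colour gives the log2 difference (treated minus control; scale at right) of each of the 34 genes (rows, grouped by role) in the 7 comparisons (columns), without and with Krt31 in the model; dots mark an adjusted p under 0.05. Replication genes (top block) carry dots only in the week 13 jak12i column of the left panel, while the mitosis blocks carry dots in week 6 jak12i in both panels.

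In week 6 no member was called under jak3i. Of the 25 mitosis genes 22 had a positive difference (median 0.29), where all 25 were negative under jak12i, and of the 9 replication genes 8 were positive (median 0.13), as under jak12i. Of 34 members none was called by limma, 1 had an unadjusted p under 0.05, and 30 had a positive difference with a median of 0.22 (all genes -0.00; 4.10% of all genes were called, and 4.53% with Krt31 in the model, where again no member was called and 1 had an unadjusted p under 0.05). Rrm2 had the smallest p: it measured 8.29, 8.28 and 8.07 under PBS pump and 8.93, 9.07, 8.64, 8.79 and 8.71 under jak3i, without overlap, a difference of 0.61 ± 0.22 (adjusted p = 0.124). Aspm differed by 0.54 ± 0.29 (0.375), Mki67 by 0.37 ± 0.30 (0.619), Top2a by 0.38 ± 0.32 (0.624), Cdk1 by 0.30 ± 0.27 (0.666), Aurka by 0.31 ± 0.20 (0.481), Mcm5 by 0.28 ± 0.24 (0.647) and Pcna by 0.20 ± 0.13 (0.475). Krt31 lay between 6.05 and 6.26 in all 8 arrays. The macrophage list, with 7 of 10 genes called lower, averaged 10.74 ± 0.38 (SD, n = 3) under PBS pump and 9.62 ± 0.34 (SD, n = 5) under jak3i; its part in the members' values was not tested.

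The difference between the jak12i and jak3i effects was itself tested in each week; the agents differed in route and the doses were not given. In week 6 it was called for 6 members, against 1.55% of all genes called lower: Aspm (-1.94 ± 0.39, adjusted p = 0.00866), Ccnb2 (-1.58 ± 0.38, 0.0227), Cenpf (-1.54 ± 0.41, 0.0346), Kif23 (-0.92 ± 0.25, 0.0394), Ttk (-0.95 ± 0.26, 0.0424) and Cdc20 (-1.17 ± 0.32, 0.0436). With Krt31 in the model 12 were called, against 1.56%. All 6, and 11 of the 12, were mitosis genes, the other being Rrm2. Without 1 array of the 4 groups the count ranged from 0, without PBS pump replicate 3, to 13, without PBS gavage replicate 1. In week 13 no member was called by limma with or without Krt31, where 0.00733% and 0.0147% of all genes were, and 1 member and 0 members had an unadjusted p under 0.05. Plk1 differed by -0.53 ± 0.30 between the effects in week 13 (95% interval -1.14 to 0.07), Tk1 by -0.82 ± 0.39 (-1.62 to -0.02) and Cdk1 by -0.73 ± 0.42 (-1.58 to 0.13).

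No member was called in week 5. PBS ip against sham gave 0 calls by limma and 0 members with an unadjusted p under 0.05, where 0.0293% of all genes were called. With Krt31 in the model there were 0 calls and 1 unadjusted p under 0.05, that of Mcm7, and 0.0147% of all genes were called. Before that term 8 of the 9 replication genes lay higher under PBS ip (median 0.19) and 24 of the 25 mitosis genes lower (median -0.21), the largest difference by p being that of Mcm3 (0.30 ± 0.18, adjusted p = 1). Sham replicate 4 had Krt31 at 10.71 and the other 7 arrays lay between 5.90 and 6.39. For il15rb against PBS ip, which uses the same PBS ip arrays, limma called 0 members before and after the Krt31 term, with no unadjusted p under 0.05 either, and 0.0733% and 0.117% of all genes. The median was -0.16 and 30 of 34 were negative. Mki67 measured 9.45, 10.05, 9.89 and 9.76 under PBS ip and 8.75, 9.86 and 10.22 under il15rb (-0.18 ± 0.31), so the treated arrays spanned the whole control range.

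Within groups, arrays with more Krt31 tended to have more of the members. With group means removed, the mean of the 34 genes correlated with Krt31 at r = 0.39 (Spearman 0.38) over 47 arrays, and at 0.21, 0.34 and 0.57 within weeks 5 (n = 11), 6 (n = 18) and 13 (n = 18). Without the 2 arrays farthest in Krt31 r was 0.37. These are descriptions with no p, since arrays of 1 group share their group mean. In the model, the slope on Krt31 was positive for 33 of 34 members, with a median of 0.09 log2 units per unit of Krt31, and passed for 5, against 5.06% of all genes with a positive slope that passed. The 5 were Melk (0.12 ± 0.03, adjusted p = 0.0142), Aurkb (0.13 ± 0.03, 0.0144), Tpx2 (0.13 ± 0.04, 0.0283), Ccnb2 (0.14 ± 0.04, 0.0386) and Cdc20 (0.11 ± 0.04, 0.0473). All are mitosis genes; the median slope was 0.10 over the mitosis genes and 0.03 over the replication genes. Fits of single weeks called 0, 0 and 2 members in weeks 5, 6 and 13, and without week 13 il15rb replicate 2 the count was 1.

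**Figure D5:**
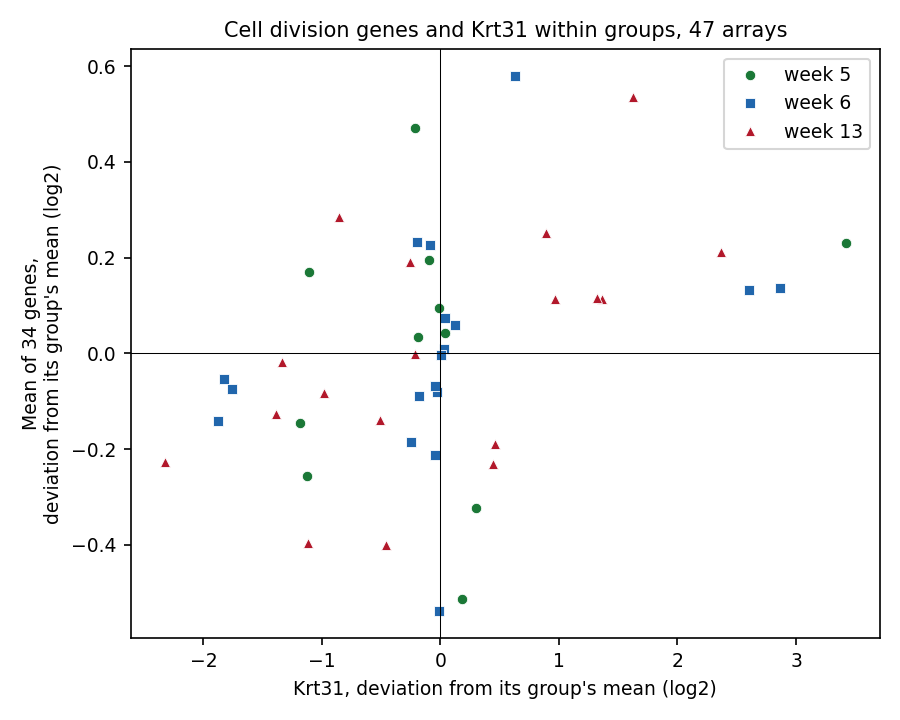
Each point is 1 of 47 arrays: the horizontal axis gives Krt31 and the vertical axis the mean of the 34 genes, both as log2 deviations from the array's group mean, with symbols for the week. The deviations of Krt31 run from -2.32 to 3.42, and r is 0.39 over all arrays.

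The members varied together within groups. Over the 561 pairs the correlation of values with group means removed had a median of 0.70 and ran from 0.28 to 0.95 (47 arrays, a description). Mki67 followed the mean of the other members most closely (0.95), then Ccnb2 (0.95) and Cdk1 (0.94), while Ttk (0.61) and Mcm6 (0.65) followed it least. Ttk was also the member with a positive difference in week 13 jak12i, and Mcm6 the one with a negative slope on Krt31. Outside the list, the genes most like the members' mean were Pbk (0.95), Smc2 (0.95), Stmn1 (0.94), Cep55 (0.94), Shcbp1 (0.93), Hmmr (0.93), Cdca8 (0.93), Cdca5 (0.92), Pclaf (0.92) and Ect2 (0.92).

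Other genes of the cell cycle were taken from lists written by hand. Of 35 tested mitosis genes outside the members 5 fell in week 6 under jak12i led by Cenpa (-1.04 ± 0.22), Pttg1 (-0.91 ± 0.21), Anln (-0.81 ± 0.20) and Kif2c (-0.76 ± 0.19), and 9 with Krt31 in the model, where 8.11% and 8.24% of all genes fell. Of 28 other replication genes none was called by limma in that comparison, and their median was 0.13. The G1 kinase gene Cdk6 fell (-0.33 ± 0.09, adjusted p = 0.019) and Mycn rose (0.28 ± 0.08, 0.018), the only calls among 15 G1 genes and 10 transcription factor genes. In week 13 under jak12i 25 of the 35 mitosis genes and 13 of the 28 replication genes fell, led by Ndc80 (-1.04 ± 0.18, adjusted p = 6.01e-05) and Fen1 (-0.54 ± 0.13, 0.00206), and 1 of each with Krt31 in the model, where 10.3% and 3.07% of all genes fell. Cdk6 fell there too (-0.52 ± 0.12), Ccne1 fell (-0.60 ± 0.14), and Cdkn1b, an inhibitor of cyclin kinases, rose (0.39 ± 0.10). Under jak3i in week 13 Cdkn1c, another inhibitor, rose by 0.98 ± 0.23 (0.00279) and Knl1, a kinetochore scaffold, fell by 1.07 ± 0.20. In that comparison 9.68% of all tested genes rose and 6.32% fell. Mybl2, a transcription factor of the mitotic programme, fell in all 3 treatments of week 13: by 0.61 ± 0.13 under il15rb, 0.41 ± 0.13 under jak3i and 0.59 ± 0.13 under jak12i. There 10.6%, 6.32% and 10.3% of all tested genes fell, and how many fell in all 3 was not counted. These are single genes of the lists. Counts per list under il15rb and jak3i, and the values of Mybl2 with Krt31 in the model, are not given here.

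Other probe sets of the same genes gave a check on the choice of probe set. For 8 of the 10 members called in week 6 under jak12i there were 14 further probe sets, of which 11 had a negative difference, 4 of 4 among those above the table median. For 18 of the 28 called in week 13 under jak12i there were 32, of which 31 were negative, 17 of 17 above the median. With the mean of all probe sets of a gene in place of the brightest, 8 members were called in week 6 and 25 in week 13.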

How the data were processed

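The deposited values were log2 signals per probe set, and the submitters' processing notes name RMA without a version; whether all arrays were normalised together is not given in the sources used here. RNA was extracted with a Qiagen kit and labelled with an Affymetrix 3′ kit, per the labels' protocols. Of 45101 probe sets 34958 named 1 gene symbol, and several probe sets of a gene were reduced to that of highest mean over all arrays. Probe sets above the table median in at least 3 arrays were tested (13646 genes, 34 members). The model had a mean for each of the 13 groups (47 arrays; limma 3.58.1, R 4.3.3), with Benjamini-Hochberg adjustment within each comparison at 0.05, and again with the log2 signal of Krt31 as a covariate with 1 slope over all groups; ± gives the SE of a difference. RMA compresses low signals, and the number of arrays limits the precision. Nothing in the labels says that arrays of a group came from separate mice, so p-values measure the spread between these arrays. The fits were tested on simulated data.

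The set for naming in each comparison began with Mki67, Top2a, Cdk1, Aurka, Mcm5, Pcna and Rrm2. It added the 10 called members of smallest adjusted p, or the 4 of smallest p where fewer than 4 were called. Krt31 and up to 4 called genes of each other list completed it. Not all of this set is printed for every comparison, so the printed values are a selection. Top2a, Aurka, Pcna and Rrm2 are left out for il15rb and jak3i in the last week. In the earliest week, differences of single members are printed only for Mcm3 and Mki67. Counts and medians cover all tested members. Other members named were chosen after their values were seen. The members and lists were chosen with earlier results of these data known. Same-numbered arrays did not deviate together (correlations from -0.49 to 0.24), so the numbers were not taken as pairs. Alternatives covered the filter, normalization, probe set, covariate, control group, single weeks, the replicate number as a block and leaving out arrays.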

Additional observations from a re-analysis of the deposited data

Results flagged for a closer look

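Among 55 pairs of a group and a quantity, 3 held an array far from the others of its group, where chance alone flags about 1 in 20 groups. Krt31 was 10.71 in week 5 sham replicate 4, with the next array of that group at 6.19. Krt31 was 6.81 in week 6 PBS gavage replicate 5, the array with low muscle signal and the highest members' mean of its group. Rrm2 was 9.33 in week 5 PBS ip replicate 2, below the other 3 arrays at 9.76 to 9.82.

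In week 6 the effects of jak12i and jak3i, each against its own PBS group, differed by the test of the difference (limma, adjusted p under 0.05) for 6 mitosis genes: Aspm by -1.94, Ccnb2 by -1.58, Cenpf by -1.54, Cdc20 by -1.17, Ttk by -0.95 and Kif23 by -0.92 on the log2 scale. Agents, routes and PBS groups differ between the effects and cannot be told apart.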

How the results depend on the processing

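Counts of called members are given with the main count in brackets, and "adjusted" means with Krt31 in the model. The cause of a changed count was not tested in any setting. No named difference that was called changed sign. Of the single-gene values, 270 lost the call and 76 gained it. An uncalled one could turn: Rrm2 in week 6 jak12i was 0.38 with PBS of all routes (-0.21). With quantile normalization the counts were 1 for week 6 jak3i adjusted (0) and 5 for week 13 il15rb (3). With array medians subtracted they were 9 for week 13 il15rb (3) and 3 adjusted (1), 5 for jak3i (2) and 9 adjusted (4), and 3 for jak12i adjusted (1). Arrays of 1 week alone gave 11 for week 6 jak12i adjusted (19), 2 for the week 6 difference of effects (6), 1 for week 13 il15rb (3) and 0 adjusted (1), 0 for jak3i (2) and 2 adjusted (4), 0 for jak12i adjusted (1), and slopes on Krt31 for 0, 0 and 2 members in weeks 5, 6 and 13 (5). The mean of all probe sets gave 5 for week 13 jak3i (2), 2 for jak12i adjusted (1) and 2 for the week 6 difference (6). With the replicate number as a block, although the arrays were not paired, the counts were 0 for week 13 il15rb adjusted (1), 1 for jak3i (2) and 1 for the slope (5), and other counts stayed within 1.5 times. A Krt31 slope for each week gave 0 for week 13 il15rb and 0 for jak12i (1 each). Krt31 as covariate gave 12 for the week 6 difference (6). PBS of all routes gave 8 for week 13 il15rb (3) and 2 adjusted (1), 8 for jak3i (2) and 21 adjusted (4), and 3 for jak12i adjusted (1); in week 6 jak12i it gave 5 higher and 2 lower (10 lower), and 3 higher and 11 lower adjusted (19 lower). Without the arrays of weeks 5 and 6 with growing hair, week 6 jak12i adjusted had 11 (19). Without the 3 arrays low in muscle, chosen after seeing the data, week 6 jak12i had 4 (10) and 7 adjusted (19), week 13 il15rb 1 (3) and 0 adjusted (1), and jak3i 7 (2) and 8 adjusted (4). Leaving out 1 array gave 4 to 17 for week 6 jak12i and 7 to 21 adjusted, 10 to 30 for week 13 jak12i and 0 to 7 adjusted, 0 to 9 for week 13 il15rb and 0 to 1 adjusted, 0 to 6 for week 13 jak3i and 0 to 8 adjusted, 1 to 8 for the slope, 0 to 13 for the week 6 difference, and 0 for both week 5 comparisons, week 6 jak3i and the week 13 difference.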

Other observations

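The week 5 array whose title says PBS ip and whose treatment label says IL15 had a members' mean of 8.60, Krt31 at 6.18, Mki67 at 9.90, Top2a at 9.49 and Cdk1 at 8.60. The members' mean lay between 8.16 and 8.68 in the week 5 PBS ip arrays and between 7.82 and 8.81 in the il15rb arrays, so its value falls within both ranges.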
